A study of Mus musculus with 12 samples.

Results

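The genes described here were 34 genes of cholesterol and fatty acid synthesis, chosen by gene symbol from a list of mevalonate and sterol pathway enzymes, SREBP control genes and fatty acid synthesis genes. All 34 were among the 45706 genes of the table, and all 34 passed the filter on low values, which left 18909 genes with a mean of at least 0.1 TPM (transcript levels adjusted for transcript length and scaled to the same total in each library). RNA-seq was performed on BN1-Tie2-EGFP cells, an immortalized murine hepatoblastoma (HB) line of Cdkn2a KO genotype that came from a liver tumor driven by β-catenin and NRF2 and carried EGFP under the endothelial Tie2/Tek promoter, with the stably transfected clones pooled. Unsorted cells were grown as monolayers in normoxia (21% oxygen, UN) or in 1% oxygen for 2 days (UH). EGFP+ cells sorted after such a hypoxic exposure were expanded for about 10 days in normoxia (SN) and were then returned to 1% oxygen for 2 days (SH). Each group had 3 libraries. The SN cells differed from the UN cells by the sort, by an earlier hypoxic exposure and by the expansion after it. These cannot be told apart. All groups came from 1 line with the same genotype and reporter. The labels did not say whether replicates were separate cultures. The paper calls them 3 independent replicas for each group and does not say at which step they were separated. The p-values thus covered the spread between these libraries alone, which may be technical.

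Cholesterol is built from acetyl-CoA through the mevalonate pathway, which makes isoprenoid units, and through the sterol branch, which joins them into squalene, closes the rings and trims lanosterol to cholesterol. Many of these enzymes are transcribed under the SREBP factors, membrane-bound proteins that the escort SCAP carries from the endoplasmic reticulum to the Golgi, where the site-1 and site-2 proteases release their active part. INSIG proteins hold SCAP and SREBP in the endoplasmic reticulum when sterols are plentiful, and SREBP-1c also drives fatty acid synthesis, a pathway that liver cells use heavily. Several steps use molecular oxygen as a substrate, among them those of squalene epoxidase, lanosterol demethylase, methylsterol monooxygenase, lathosterol oxidase and the stearoyl-CoA desaturases.

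Of 12 textbook hypoxia targets, 10 were higher in UH than in UN and 11 were higher in SH than in SN. These genes were used to check the labels of oxygen tension. Of 8 hepatoblast and hepatocyte markers, 3 of the 7 tested were lower (Alb, Krt8 and Hnf4a) and 1 was higher (Afp) in SN than in UN, and their sum ran from 109.5 to 218.5 TPM over the 12 libraries, with Krt18 at 63.5 to 157 TPM and Alb not above 4.23. Krt8 had means of 65.5 TPM in UN, 37.8 in UH, 4.78 in SN and 10.8 in SH. Hnf4a fell from a mean of 3.85 TPM in UN to 0.161 in UH and was at 0.263 in SN and 0.108 in SH. Endogenous Tek stood at 0.0853 to 0.226 TPM in the unsorted libraries and at 2.07 to 3.29 TPM in the sorted ones. Of the 8 endothelial markers, Tek included, 5 were tested, and the same 2, Eng and Plvap, were higher in each hypoxia comparison. Eng had means of 19.6 TPM in UN, 39.8 in UH, 1.14 in SN and 6.30 in SH, and Plvap of 0.156, 1.57, 1.34 and 4.13 TPM. Pecam1, Cdh5, Kdr, Tie1 and Emcn stayed under 0.5 TPM in every library. The part of these markers in the differences of the 34 genes was not tested. The summed level of 9 fibroblast and pericyte markers ran from 1175 to 5160 TPM in UN, from 4851 to 7133 in UH, from 199.6 to 209.5 in SN and from 50.5 to 66.6 in SH. Single markers did not all follow the sum. Of the 8 tested, 3 were higher and 3 lower in UH than in UN. In SN vs UN 5 were lower and 0 higher, and in SH vs UH 6 were lower and 0 higher. Col1a1 had means of 704 TPM in UN, 3051 in UH, 6.66 in SN and 22.2 in SH. Those of Pdgfrb were 44.7, 15.2, 43.8 and 6.08 TPM. UN replicate 1 stood apart in UN on that list, with 1960 TPM of Col3a1 against 222 and 173 in the other UN libraries, and it was the highest UN library for 20 of the 34 members. SN replicate 3 was the highest SN library for 24 of the 34 members. Library depth was unknown because TPM keeps no read totals, so no floor of detection or counting interval was given.

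A large share of the pathway genes were lower in hypoxia than in normoxia in both cell populations. In unsorted cells 18 of the 34 members were lower in UH than in UN and 2 were higher, at an adjusted p under 0.05 and a fold above 2 (limma on log2(TPM + 1), Benjamini-Hochberg adjustment over all genes). Over all genes tested, 11.8% were lower and 5.46% were higher in that comparison. The median member changed by -1.14 on the log2 scale, against -0.19 for all genes. In sorted cells 19 members were lower in SH than in SN and 2 were higher, against 5.00% and 7.47% of all genes, and the member median was -1.24 against 0.03. The same 16 members were lower in both comparisons and the same 2, Insig2 and Lpin1, were higher in both. Among all genes tested 3.40% were lower in both and 2.97% were higher in both. Median-of-ratios scaling, which moved the median gene in UH vs UN from -0.19 to 0 and its calls from 1032 higher and 2222 lower to 1566 and 1221, left 15 members lower and 3 higher in that comparison. The levels come from mixed cultures, in which fewer cells of a type and less RNA per cell cannot be told apart.

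**Figure D1:**
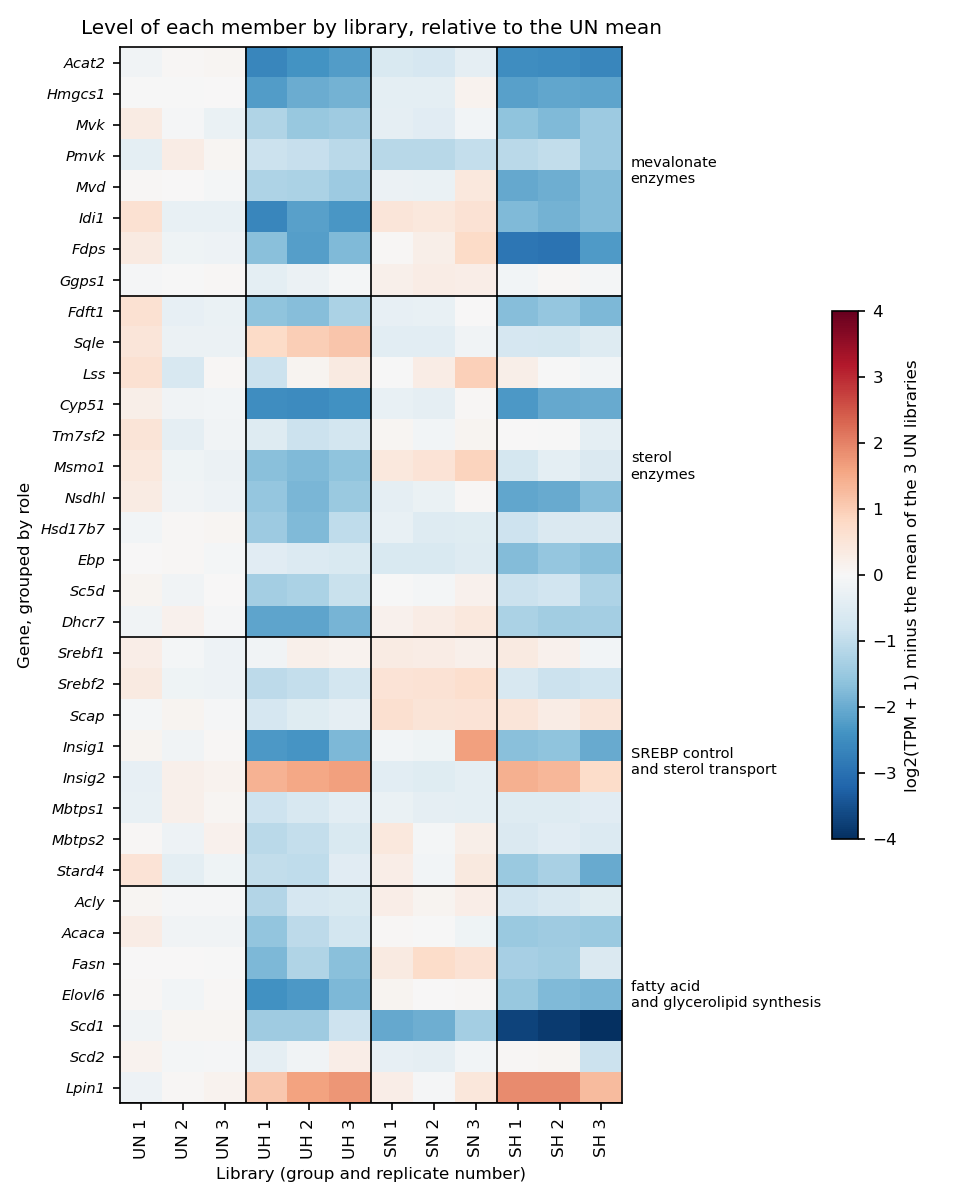
Level of the 34 members (rows, grouped by role) in each of the 12 libraries (columns), as log2(TPM + 1) minus the mean of the 3 UN libraries, with blue for lower and red for higher levels. The 16 members lower in both hypoxia comparisons are blue in the UH and SH columns, Insig2 and Lpin1 are red there, and Scd1 is blue in SN as well.

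Single libraries showed the same separation. In UH all 3 libraries lay below all 3 UN libraries for 28 members, where 36.2% of all genes did so. In SH all 3 libraries lay below all 3 SN libraries for 27 members, where 27.1% of all genes did so. For 22 members all 6 hypoxic libraries lay below all 6 normoxic libraries, a separation seen in 13.1% of the genes tested. The 2 sets of differences, which share no library, had a Pearson correlation of 0.86 across the 34 members and of 0.62 across all genes tested, with genes that are not independent replicates. The 8 markers of cycling cells were all lower in UH than in UN, with sums of 880 to 962 TPM in UN and 229 to 289 in UH. In the sorted cells 3 of the 8 were lower, with sums of 995 to 1210.0 TPM in SN and 488 to 533 in SH. Their part in the differences of the 34 genes was not tested.

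**Figure D2:**
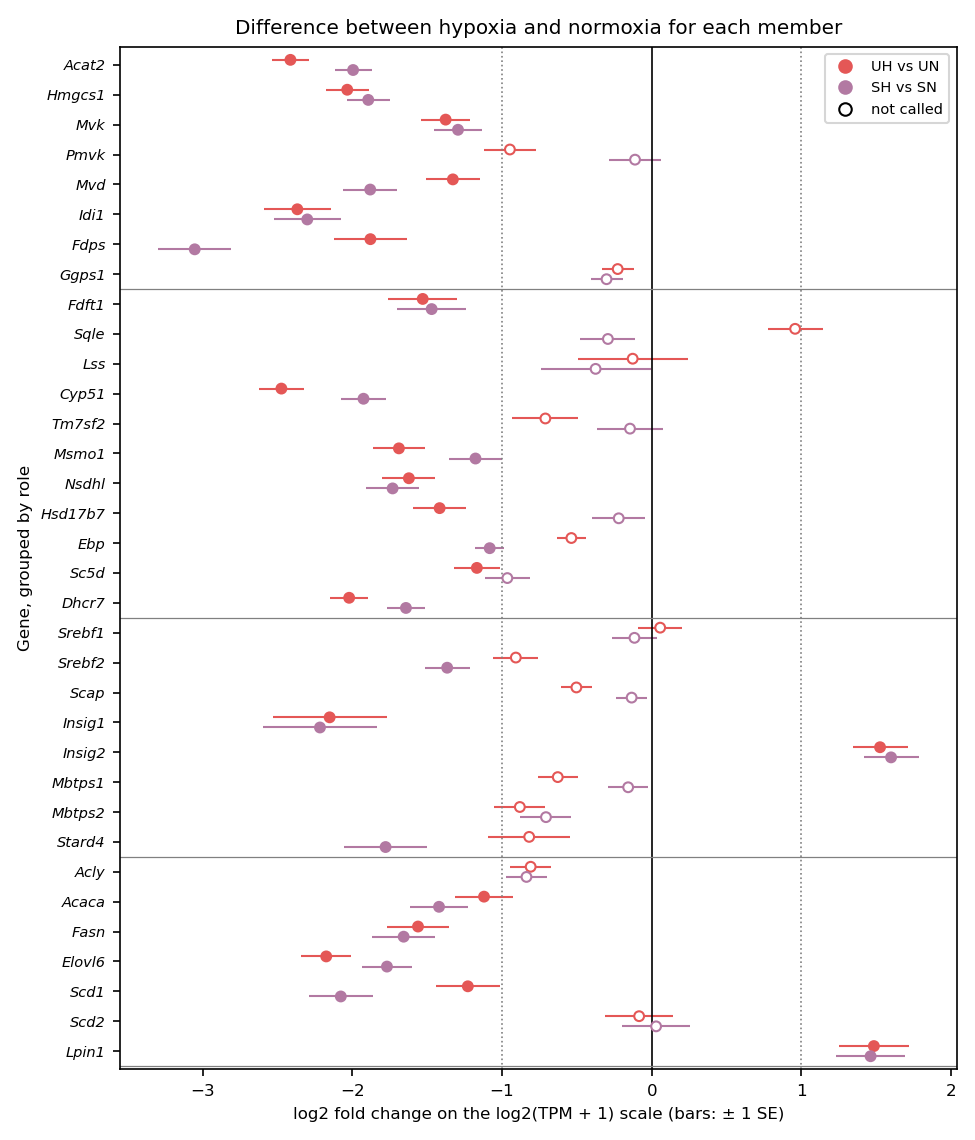
Difference between hypoxia and normoxia for each member as a log2 fold change on the log2(TPM + 1) scale with ± 1 SE, in unsorted cells (UH vs UN) and in sorted cells (SH vs SN), with filled points for called genes and dotted lines at the fold limit. Mevalonate enzymes lie to the left of 0 in both comparisons, Sqle lies to the right in UH vs UN alone, and Insig2 and Lpin1 lie beyond the limit on the right in both.

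Of the 8 mevalonate enzymes, 6 were lower in UH than in UN and the same 6 were lower in SH than in SN, with medians of -1.63 and -1.89. Acat2, the cytosolic thiolase that joins acetyl-CoA units, stood at 49.8, 56.9 and 57.2 TPM in UN, 8.13, 9.51 and 10.8 in UH, 35.4, 34.04 and 41.9 in SN and 8.86, 8.61 and 8.13 in SH. Its hypoxic and normoxic libraries were far apart, with a log2 fold change of -2.41 ± 0.12 (SE) in UH vs UN (adjusted p = 7.4e-08) and of -1.99 ± 0.12 in SH vs SN (adjusted p = 5.5e-07). Hmgcs1 (chr13:119690379-119708260, plus strand, mm10), which makes HMG-CoA, stood at 53.7, 54.1 and 54.5 TPM in UN, 10.8, 13.02 and 13.7 in UH, 40.7, 40.97 and 59.3 in SN and 11.3, 12.1 and 11.7 in SH. Its mean was 4.32 times lower in UH than in UN and 4.01 times lower in SH than in SN, with SN replicate 3 above the other SN libraries. Mvk, the kinase of mevalonate itself, stood at 46.9, 36.1 and 30.6 TPM in UN, 15.6, 12.4 and 13.4 in UH, 28.9, 26.7 and 34.4 in SN and 11.7, 10.3 and 12.9 in SH, and it fell by 1.38 and 1.29 on the log2 scale.

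Mvd, the decarboxylase that yields isopentenyl diphosphate, stood at 20.9, 20.3 and 19.02 TPM in UN, 7.85, 7.70 and 6.65 in UH, 16.7, 16.5 and 27.4 in SN and 4.13, 4.46 and 5.31 in SH. Its normoxic libraries were all above 16 TPM and its hypoxic ones all below 8. Idi1, the isomerase of that isoprenoid unit, stood at 27.7, 14.3 and 14.2 TPM in UN, 2.09, 3.22 and 2.74 in UH, 25.3, 24.4 and 27.4 in SN and 4.49, 4.11 and 4.64 in SH. The Idi1 mean was 6.99 times lower in UH vs UN (log2 -2.37 ± 0.22, adjusted p = 6.3e-06) and 5.82 times lower in SH vs SN (log2 -2.30 ± 0.22, adjusted p = 1.3e-05), and UN replicate 1 held about as much as the SN libraries. Fdps, which joins the units into farnesyl diphosphate, stood at 144, 99.6 and 97.9 TPM in UN, 34.7, 23.4 and 32.2 in UH, 117, 131 and 191 in SN and 14.2, 13.6 and 22.6 in SH. It had the lowest ratio of all members in sorted cells, 8.71 times lower in SH than in SN (log2 -3.05 ± 0.24, adjusted p = 3e-06), and was 3.78 times lower in UH than in UN (log2 -1.88 ± 0.24). The other 2 enzymes were not called. Pmvk, the second kinase of the pathway, missed the fold limit in UH vs UN with -0.95 ± 0.17 and passed it without UN replicate 1 (-1.14), while in SH vs SN it changed by -0.11 ± 0.17 (adjusted p = 0.66). Ggps1, which extends farnesyl diphosphate for protein prenylation rather than for sterols, changed by -0.23 ± 0.11 and -0.30 ± 0.11.

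Of the 11 sterol enzymes from squalene synthesis on, 7 were lower in UH than in UN and 6 were lower in SH than in SN. None was called higher by limma, and at an unadjusted p under 0.05 there was 1, Sqle, in unsorted cells and 0 in sorted cells. Fdft1, squalene synthase and the first enzyme committed to sterols, stood at 40.6, 20.6 and 21.8 TPM in UN, 8.00, 7.39 and 10.3 in UH, 20.6, 21.2 and 26.7 in SN and 7.50, 8.45 and 6.80 in SH. It was lower in both comparisons, by -1.53 ± 0.23 and -1.47 ± 0.23 on the log2 scale. Cyp51, the lanosterol demethylase, stood at 40.6, 30.9 and 31.5 TPM in UN, 5.29, 5.14 and 5.51 in UH, 27.6, 26.1 and 35.5 in SN and 6.13, 7.43 and 7.58 in SH, and no hypoxic library reached 8 TPM while no normoxic one was under 26. Its log2 fold change of -2.47 ± 0.15 in UH vs UN (adjusted p = 2.3e-07) was the lowest of all members there, and SH vs SN gave -1.93 ± 0.15 (adjusted p = 2.6e-06). Msmo1, which oxidizes the methyl groups at carbon 4, stood at 63.8, 41.9 and 40.4 TPM in UN, 14.2, 13.2 and 14.96 in UH, 64.4, 69.4 and 88.3 in SN and 28.8, 35.9 and 31.4 in SH. The fall was 3.45 times in unsorted and 2.31 times in sorted cells, and the SH libraries stood above those of UH.

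Nsdhl, the dehydrogenase that acts after Msmo1, stood at 48.1, 33.9 and 33.00 TPM in UN, 12.3, 9.96 and 12.7 in UH, 29.1, 30.97 and 39.2 in SN and 8.21, 8.59 and 11.01 in SH, with log2 fold changes of -1.62 ± 0.18 and -1.73 ± 0.18. Dhcr7, which carries out the last reduction to cholesterol, stood at 20.6, 25.6 and 21.9 TPM in UN, 4.48, 4.49 and 5.54 in UH, 25.6, 28.3 and 30.4 in SN and 8.80, 8.03 and 8.11 in SH. Both falls were clear of the replicate spread, at -2.02 ± 0.13 (adjusted p = 3e-07) and -1.64 ± 0.13 (adjusted p = 2.5e-06). Sc5d, the lathosterol oxidase, stood at 48.95, 40.9 and 45.9 TPM in UN, 17.1, 18.4 and 23.7 in UH, 44.3, 42.3 and 51.2 in SN and 24.4, 26.4 and 18.8 in SH. It was called in UH vs UN (-1.17 ± 0.15) and was just short of the fold limit in SH vs SN (-0.96 ± 0.15, adjusted p = 0.00039), which it passed without SN replicate 2 (-1.02), SH replicate 1 (-1.01) or SH replicate 2 (-1.06). Under median-of-ratios scaling Sc5d was -0.82 in UH vs UN and was no longer called.

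Hsd17b7, the reductase of 3-ketosterols, stood at 12.4, 13.8 and 14.1 TPM in UN, 4.22, 3.27 and 6.05 in UH, 10.8, 8.98 and 9.19 in SN and 7.17, 8.55 and 8.74 in SH. It was called in UH vs UN (-1.42 ± 0.18, adjusted p = 5e-05) and changed by -0.22 ± 0.18 in SH vs SN (adjusted p = 0.36). Ebp, the sterol isomerase, stood at 35.04, 35.4 and 32.7 TPM in UN, 24.8, 23.3 and 22.04 in UH, 22.4, 22.4 and 23.9 in SN and 9.74, 11.1 and 10.05 in SH. Ebp was called in sorted cells (-1.08 ± 0.10, adjusted p = 6.8e-06), and in unsorted cells its difference of -0.54 ± 0.10 (adjusted p = 0.0007) was under the fold limit. Lss, which closes the sterol rings, changed by -0.13 ± 0.37 and -0.37 ± 0.37, and its libraries overlapped in both comparisons. Tm7sf2, a sterol reductase that shares its step with the lamin B receptor, changed by -0.71 ± 0.22 (adjusted p = 0.02) and -0.14 ± 0.22 (adjusted p = 0.65).

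Sqle was the exception among the sterol enzymes. This gene (chr15:59315077-59331192, plus strand, mm10) encodes squalene epoxidase, the first oxygen-using step of the branch, and stood at 54.5, 32.3 and 32.6 TPM in UN, 66.1, 78.1 and 84.9 in UH, 28.3, 28.6 and 34.7 in SN and 23.99, 23.2 and 26.9 in SH. Every UH library was above every UN library, by 0.96 ± 0.18 on the log2 scale (95% interval 0.56 to 1.36, adjusted p = 0.0012), just short of the fold limit. Without UN replicate 1 the difference was 1.20 and without UH replicate 1 it was 1.06, both called, as it was under median-of-ratios scaling (1.31) and quantile normalization (1.21). In sorted cells all 3 SH libraries were below the SN libraries, and the difference of -0.29 ± 0.18 did not pass the test (adjusted p = 0.23). The ratio of Sqle to Cyp51 TPM, 2 successive oxygen-using enzymes separated by ring closure, was 1.34, 1.05 and 1.04 in UN, 12.5, 15.2 and 15.4 in UH, 1.03, 1.10 and 0.977 in SN and 3.91, 3.12 and 3.55 in SH. The ratio did not overlap between hypoxia and normoxia in either population (two-sided exact permutation test, p = 0.1 for each, the smallest that 3 against 3 allows). Cyp51 alone already separated these libraries, so the test of the ratio adds no support.

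**Figure D3:**
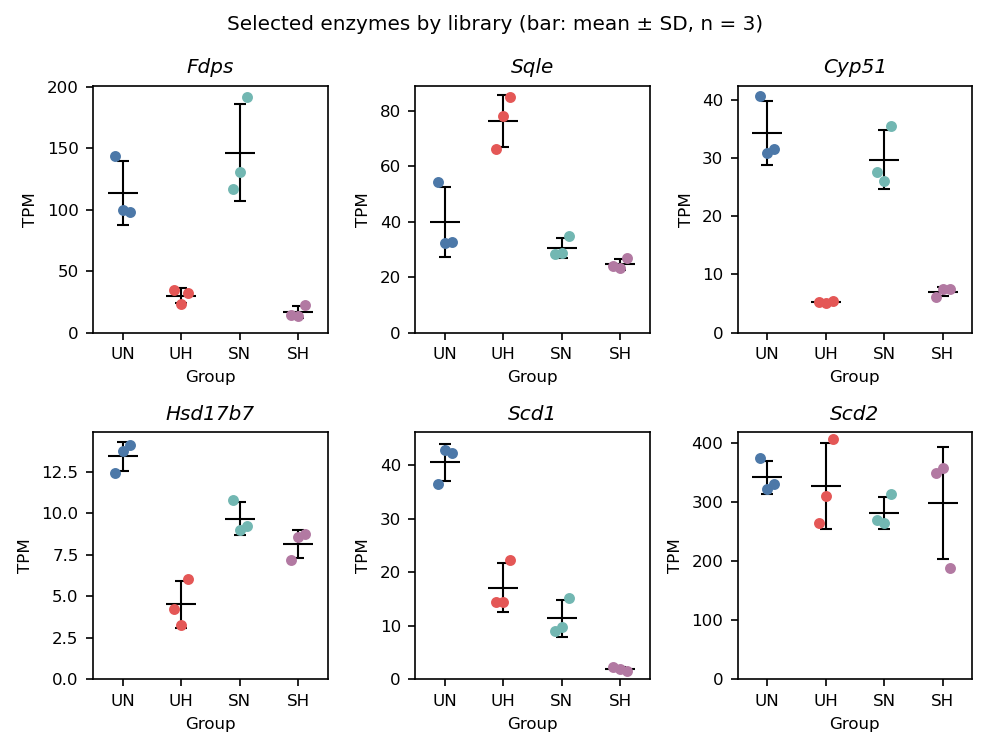
TPM of 6 enzymes in each library (points) by group, with the mean and SD of 3 libraries (bars). Sqle is highest in UH while Cyp51 is low in both hypoxic groups, Hsd17b7 is lowest in UH, the Scd1 mean is lower in each group from UN through UH and SN to SH, and Scd2 overlaps between hypoxia and normoxia in both populations.

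The 6 members whose enzymes use molecular oxygen (Sqle, Cyp51, Msmo1, Sc5d, Scd1 and Scd2) were set beside the 20 other enzymes. Of the 6, 4 were lower in UH than in UN and 3 were lower in SH than in SN, with medians of -1.20 and -1.07. Of the other 20, 13 were lower in each comparison, with medians of -1.40 and -1.45. The difference between the 2 sets of enzymes was not tested.

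Among the 8 genes of SREBP control and sterol transport the 2 INSIG genes moved in opposite directions. Insig1 (chr5:28071363-28078662, plus strand, mm10), itself a known SREBP target, stood at 46.04, 39.3 and 44.1 TPM in UN, 8.01, 7.53 and 11.7 in UH, 39.99, 37.8 and 135 in SN and 12.7, 13.4 and 9.97 in SH. It fell in unsorted cells by 2.15 on the log2 scale (SE 0.38, adjusted p = 0.00066) and in sorted cells by 2.22 (adjusted p = 0.0007). SN replicate 3 held more than 3 times the Insig1 of the other SN libraries, and without it the fall in sorted cells was 1.63 (adjusted p = 0.00013). Insig2 (chr1:121304353-121332589, minus strand, mm10), the other INSIG protein, stood at 21.98, 32.00 and 30.9 TPM in UN, 73.99, 83.96 and 89.5 in UH, 20.5, 19.8 and 21.1 in SN and 77.2, 71.98 and 47.1 in SH. It rose in both populations, by 1.53 ± 0.18 (adjusted p = 3.9e-05) and 1.60 ± 0.18 (adjusted p = 4.3e-05), and no hypoxic library overlapped a normoxic one. The ratio of Insig2 to Insig1 TPM was 0.477, 0.815 and 0.700 in UN, 9.24, 11.2 and 7.66 in UH, 0.513, 0.524 and 0.156 in SN and 6.09, 5.39 and 4.73 in SH. Insig1 was thus the more abundant transcript in every normoxic library and Insig2 in every hypoxic one (exact permutation p = 0.1 in each population, the smallest possible). Each gene alone already separated these libraries, so the test of the ratio adds no support.

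**Figure D4:**
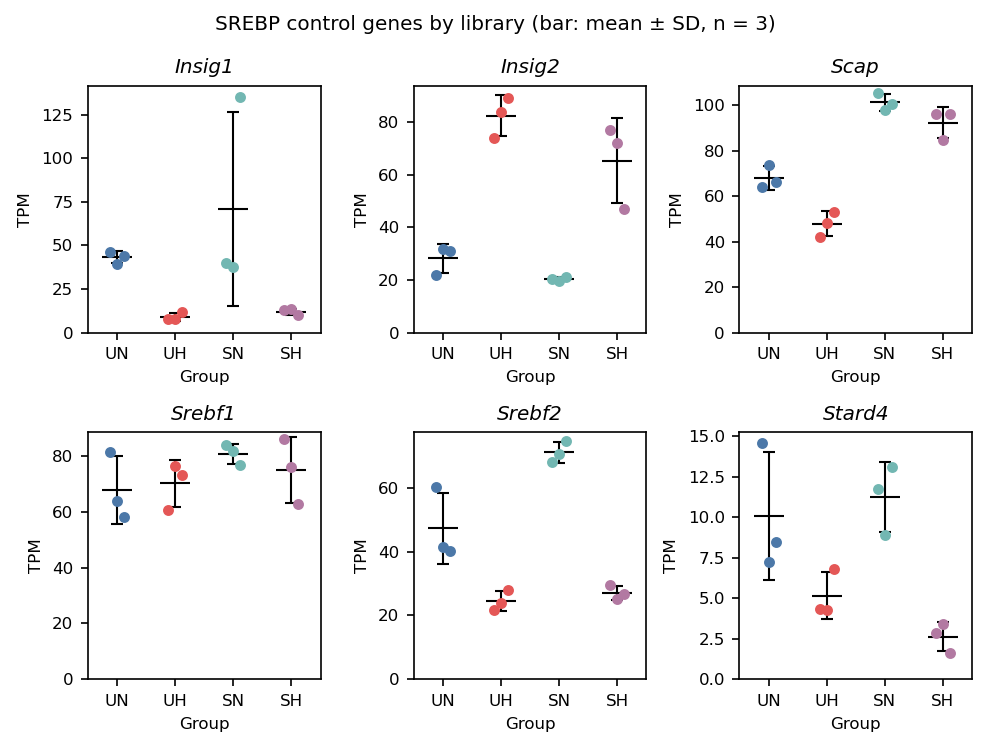
TPM of 6 genes of SREBP control and sterol transport in each library (points) by group, with the mean and SD of 3 libraries (bars). Insig1 is low and Insig2 high in UH and SH, 1 SN library stands at 135 TPM of Insig1, Srebf2 is low in UH and SH, and Srebf1 overlaps between hypoxia and normoxia in both populations.

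The genes of the 2 SREBP factors differed as well. Srebf2, whose product mainly drives sterol genes, stood at 60.2, 41.6 and 40.3 TPM in UN, 21.8, 23.8 and 27.9 in UH, 68.3, 70.8 and 74.9 in SN and 29.6, 25.1 and 26.6 in SH. Srebf2 was called in SH vs SN (-1.37 ± 0.15, adjusted p = 3e-05) and in UH vs UN missed the fold limit (-0.91 ± 0.15, adjusted p = 0.00039), which it passed without UN replicate 3 (-1.01) or UH replicate 3 (-1.001). Srebf1, whose product mainly drives fatty acid genes, stood at 81.6, 63.8 and 58.2 TPM in UN, 60.7, 76.7 and 73.4 in UH, 83.96, 81.9 and 76.9 in SN and 86.4, 76.4 and 62.9 in SH. Its libraries overlapped in both comparisons, and the 95% intervals of the log2 difference were -0.27 to 0.38 in UH vs UN and -0.44 to 0.21 in SH vs SN. Median-of-ratios scaling placed Srebf1 at 0.41 in UH vs UN (adjusted p = 0.040), still under the fold limit. The ratio of Srebf2 to Srebf1 TPM ran from 0.651 to 0.738 in UN, from 0.310 to 0.380 in UH, from 0.813 to 0.973 in SN and from 0.328 to 0.424 in SH. These ratios did not overlap between hypoxia and normoxia (exact permutation p = 0.1 in each population). Srebf2 alone already separated these libraries, so the test of the ratio adds no support.

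Scap, the escort of the SREBPs, stood at 64.2, 73.9 and 66.2 TPM in UN, 42.2, 48.2 and 53.1 in UH, 105, 98.03 and 101 in SN and 96.5, 84.6 and 96.1 in SH, with log2 differences of -0.50 ± 0.10 in UH vs UN (adjusted p = 0.0017) and -0.13 ± 0.10 in SH vs SN. Mbtps1, the site-1 protease, stood at 81.2, 114 and 105 TPM in UN, 54.8, 63.7 and 74.2 in UH, 82.03, 77.2 and 74.8 in SN and 69.3, 68.4 and 71.7 in SH, with -0.63 ± 0.13 (adjusted p = 0.0023) and -0.16 ± 0.13. Mbtps2, the site-2 protease, stood at 12.3, 10.2 and 13.4 TPM in UN, 5.08, 5.66 and 7.49 in UH, 16.3, 11.2 and 14.03 in SN and 7.70, 8.51 and 7.81 in SH, with -0.88 ± 0.17 and -0.71 ± 0.17 (adjusted p = 0.0012 and 0.006). None of the 3 passed the fold limit, although Mbtps2 did in UH vs UN without UH replicate 3 (-1.02). Stard4, a carrier of cholesterol between membranes, stood at 14.6, 7.20 and 8.48 TPM in UN, 4.36, 4.28 and 6.81 in UH, 11.8, 8.90 and 13.1 in SN and 2.83, 3.38 and 1.63 in SH. It was called in SH vs SN (-1.78 ± 0.28, adjusted p = 0.00035) and in UH vs UN was at -0.82 ± 0.28 (adjusted p = 0.029), past the fold limit without UN replicate 2 (-1.01) or UH replicate 3 (-1.003).

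Of the 7 genes of fatty acid and glycerolipid synthesis, the same 4 were lower and the same 1 was higher in both comparisons. Acaca, acetyl-CoA carboxylase and the rate-setting enzyme of the pathway, stood at 29.3, 21.5 and 21.3 TPM in UN, 7.33, 10.9 and 13.98 in UH, 24.8, 23.7 and 20.8 in SN and 7.95, 8.25 and 7.78 in SH. It was lower by -1.12 ± 0.20 in UH vs UN and by -1.42 ± 0.20 in SH vs SN (adjusted p = 0.00015). The unsorted call was lost without UN replicate 1 (-0.98), without UH replicate 1 (-0.89) and under median-of-ratios scaling (-0.79). Fasn, fatty acid synthase, stood at 171, 172 and 167 TPM in UN, 48.2, 72.5 and 52.8 in UH, 220.0, 285 and 254 in SN and 67.2, 64.2 and 115 in SH, and its mean was 2.94 and 3.08 times lower in hypoxia. SH replicate 3 held more Fasn than the other SH libraries but less than any normoxic library. Elovl6, which lengthens palmitate, stood at 14.2, 12.7 and 14.1 TPM in UN, 1.76, 1.95 and 3.19 in UH, 14.8, 13.8 and 14.2 in SN and 4.08, 3.30 and 3.14 in SH, with log2 fold changes of -2.17 ± 0.17 (adjusted p = 1.4e-06) and -1.77 ± 0.17 (adjusted p = 1.1e-05).

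The 2 desaturase genes, neighbours on chromosome 19, behaved differently. Scd1 (chr19:44394455-44407879, minus strand, mm10), the main desaturase of adult liver, stood at 36.5, 42.8 and 42.3 TPM in UN, 14.4, 14.4 and 22.3 in UH, 9.03, 9.73 and 15.2 in SN and 2.21, 1.93 and 1.47 in SH. It was lower by -1.23 ± 0.21 in UH vs UN (adjusted p = 0.00057), a value of -0.89 and no call under median-of-ratios scaling, and by -2.08 ± 0.21 in SH vs SN (adjusted p = 1.9e-05). Scd2, the desaturase prominent in early life and outside the liver, was the most abundant member, with group means of 341 ± 27.9 (SD, n = 3) TPM in UN, 327 ± 72.8 in UH, 281 ± 26.9 in SN and 298 ± 94.99 in SH. Its 95% intervals were -0.58 to 0.41 in UH vs UN and -0.46 to 0.52 in SH vs SN. The ratio of Scd2 to Scd1 TPM was 7.51 to 10.2 in UN, 18.2 to 21.5 in UH, 20.5 to 29.7 in SN and 128 to 185 in SH. Acly, which supplies cytosolic acetyl-CoA from citrate, was at -0.81 ± 0.14 and -0.84 ± 0.14 (adjusted p = 0.00049 and 0.00051), short of the fold limit in both. Lpin1, a phosphatidate phosphatase of glycerolipid synthesis that also acts as a coregulator, stood at 1.499, 1.99 and 2.17 TPM in UN, 5.06, 7.71 and 8.82 in UH, 2.49, 1.79 and 2.93 in SN and 9.70, 9.72 and 5.97 in SH. It rose 3.82 times in unsorted and 3.52 times in sorted cells (adjusted p = 0.00028 and 0.00042), and its hypoxic and normoxic libraries did not overlap.

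As a share of all transcripts the pathway as a whole was lower in hypoxia. The 34 members summed to 1673 to 1903 TPM in UN, to 941 to 1242 in UH, to 1682 to 2048 in SN and to 960 to 1121 in SH. The 8 mevalonate enzymes summed to 344 to 398 TPM in UN and 306 to 429 in SN, against 110.3 to 119.6 in UH and 94.1 to 99.5 in SH. The 11 sterol enzymes summed to 290.3 to 399.7 TPM in UN and 296 to 379 in SN, against 169 to 210.3 in UH and 149 to 160.2 in SH. Mitochondrially encoded transcripts took 5.18% to 7.55% of the total in UN, 1.67% to 2.53% in UH, 7.64% to 8.38% in SN and 2.66% to 4.68% in SH. With TPM rescaled without them, 19 and 20 members were lower in the 2 hypoxia comparisons.

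Promoter sequences are given for 4 members because these moved together or against each other, namely Hmgcs1, Idi1 and Insig1, which fell in both comparisons, and Insig2, which rose in both. RefSeq (GRCm38.p6) held a window for 28 of the 34 members, and where a gene had several the most upstream start was used. The 150 bases before the RefSeq start are given on the strand of the gene, with matches to any of 5 motifs in capitals. For Idi1 and Insig1 these bases run past the GENCODE M21 gene starts, at 8885501 and 28071363, and so hold bases inside the gene. The motifs, searched on both strands, were the sterol regulatory element core TCACNCCAC, the CCAAT box, the GC box GGGCGG, the E-box CACGTG and the hypoxia element core ACGTG, which every CACGTG contains.
Hmgcs1, chr13:119690201-119690350, plus strand: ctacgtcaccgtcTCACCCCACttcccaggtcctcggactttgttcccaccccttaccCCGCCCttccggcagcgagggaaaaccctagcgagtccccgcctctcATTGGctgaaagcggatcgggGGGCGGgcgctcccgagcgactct
Idi1, chr13:8885456-8885605, plus strand: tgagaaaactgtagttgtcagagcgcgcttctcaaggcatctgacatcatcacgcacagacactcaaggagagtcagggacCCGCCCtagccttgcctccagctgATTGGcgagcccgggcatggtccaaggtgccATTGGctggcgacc
Insig1, chr5:28071262-28071411, plus strand: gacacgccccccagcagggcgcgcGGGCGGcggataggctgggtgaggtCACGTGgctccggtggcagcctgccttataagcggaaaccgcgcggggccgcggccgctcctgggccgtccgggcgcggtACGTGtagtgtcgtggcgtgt
Insig2, chr1:121332590-121332739, minus strand: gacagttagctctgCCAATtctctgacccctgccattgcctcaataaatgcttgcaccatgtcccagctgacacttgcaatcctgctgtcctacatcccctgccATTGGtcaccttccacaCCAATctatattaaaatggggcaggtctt

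In the 250 bases before the start, the CCAAT box was found in 19 of the 28 members (67.9%), against 34.5% of 27025 genes with a window and 36.2% of the 11707 of these that were tested. Of the 2 members that rose in both comparisons, Insig2 held it and Lpin1 did not. Of those that fell in both, Acaca, Acat2, Dhcr7 and Elovl6 had none. The GC box was in 18 members (64.3%), against 33.0% of all and 56.3% of tested genes. The 10 without it were Insig2 and Lpin1, which rose in both comparisons, Acaca, Elovl6 and Fasn, which fell in both, and Ggps1, Pmvk, Scap, Srebf1 and Mbtps2, which were called in neither. The last 150 bases of the Acaca, Msmo1 and Tm7sf2 windows lay inside their GENCODE M21 genes. Those of some other windows, Idi1 and Insig1 among them, lay partly inside. For Acaca they were chr11:84195288-84195437, while the GENCODE M21 gene starts at 84129672 on the plus strand. The lack of both boxes there thus does not describe the bases before that start. The shares of members with a motif carry the same limit. The sterol regulatory element core was found in Hmgcs1 alone, against 1.03% of all windows and 0.999% of those of tested genes. The hypoxia element core was found in 4 members (14.3%; Acly, Hsd17b7, Insig1 and Sc5d), against 16.5% of all and 20.8% of tested genes. The E-box was in 3 of these (10.7%), against 6.04% of all and 8.05% of tested genes. A match is a description of these letters, and its absence says nothing of a factor.

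Other genes of the pathway, listed by function but with earlier results of these data known, were read beside the 34. Lbr, the lamin B receptor and sterol reductase, was lower in unsorted hypoxic cells (-1.34 ± 0.14), while in sorted cells its difference was -0.87 ± 0.14 (adjusted p = 0.00038), under the fold limit.

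Of 8 tested genes of sterol uptake and transport, 1 was lower and 1 was higher in UH than in UN, and 1 was higher in SH than in SN. Over all genes tested, 11.8% were lower and 5.46% higher in UH vs UN, and 5.00% lower and 7.47% higher in SH vs SN. Counts this small in short lists are not read as a result about the lists. Lipa, the lysosomal lipase that frees cholesterol from its esters, was lower in UH vs UN (-1.77 ± 0.34) and at -0.05 ± 0.34 in SH vs SN (adjusted p = 0.93). Lrp1, a large endocytic receptor, rose by 1.65 ± 0.25 and 1.14 ± 0.25. Of 9 tested genes of efflux, storage and oxysterol handling, 2 were higher in each comparison and 2 were lower in UH vs UN. Soat2, which esterifies cholesterol, rose by 1.24 ± 0.18 and 2.34 ± 0.18, from means of 0.521 to 2.59 TPM in unsorted and of 0.286 to 5.56 TPM in sorted cells. Of 8 genes of SREBP turnover and related control, 1 was higher and 1 was lower in each comparison. They were Pgrmc1 (1.04 ± 0.15 and 1.04 ± 0.15), a heme-binding membrane protein, and Trib1 (-1.56 ± 0.32 and -1.68 ± 0.32), a pseudokinase.

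Of 23 tested genes of other fatty acid synthesis, 4 were lower and 2 were higher in each comparison. The shares of all genes were 11.8% lower and 5.46% higher in UH vs UN, and 5.00% and 7.47% in SH vs SN. Whether the list differed from those shares was not tested. Mid1ip1, an activator of acetyl-CoA carboxylase, was lower in both (-1.82 ± 0.20 and -1.91 ± 0.20). Acss2, which makes acetyl-CoA from acetate, was higher in both (1.18 ± 0.25 and 3.08 ± 0.25), with group means of 9.61 TPM in UN, 22.7 in UH, 3.15 in SN and 35.3 in SH, and its 2 responses differed (difference 1.90 ± 0.36, adjusted p = 0.0038). Lpin3, another lipin, was higher in both (2.497 ± 0.17 and 1.04 ± 0.17). Fads1 and Fads2, the desaturases of polyunsaturated fatty acids, were lower in SH vs SN (-1.16 ± 0.15 and -1.44 ± 0.22). Genes of the same families as Acat2, Scd1 and Scd2 stood at low levels, with Acat3 under 3 TPM and Scd3 and Scd4 under 2 TPM in every library.

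Members were also compared between sorted and unsorted cells, where the counts called are not read as a result about the members. Between SN and UN none of the 34 members was higher and 2 were lower, against 3.20% and 7.57% of all genes. At an unadjusted p under 0.05 by limma 7 were higher and 7 were lower, without a share of all genes at that limit. At the adjusted p with no fold limit, 2455 of all 18909 genes were higher and 3956 lower. The unadjusted counts are thus not read as a result about the members. Scd1 was lower in SN by -1.78 ± 0.21 (adjusted p = 7.6e-05), with all 3 SN libraries below all 3 UN libraries. Pmvk stood at 37.97, 61.7 and 52.5 TPM in UN, 26.97, 25.9 and 23.2 in UH, 22.3, 22.3 and 25.2 in SN and 23.1, 24.5 and 17.3 in SH. Its difference between SN and UN was -1.07 ± 0.17 (adjusted p = 0.00062), which was no call without UN replicate 2 (-0.91) and under median-of-ratios scaling (-0.95). Srebf2, Scap and Msmo1 were higher in SN by 0.60 ± 0.15, 0.57 ± 0.10 and 0.61 ± 0.17 (adjusted p = 0.0086, 0.0012 and 0.018), all under the fold limit.

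**Figure D5:**
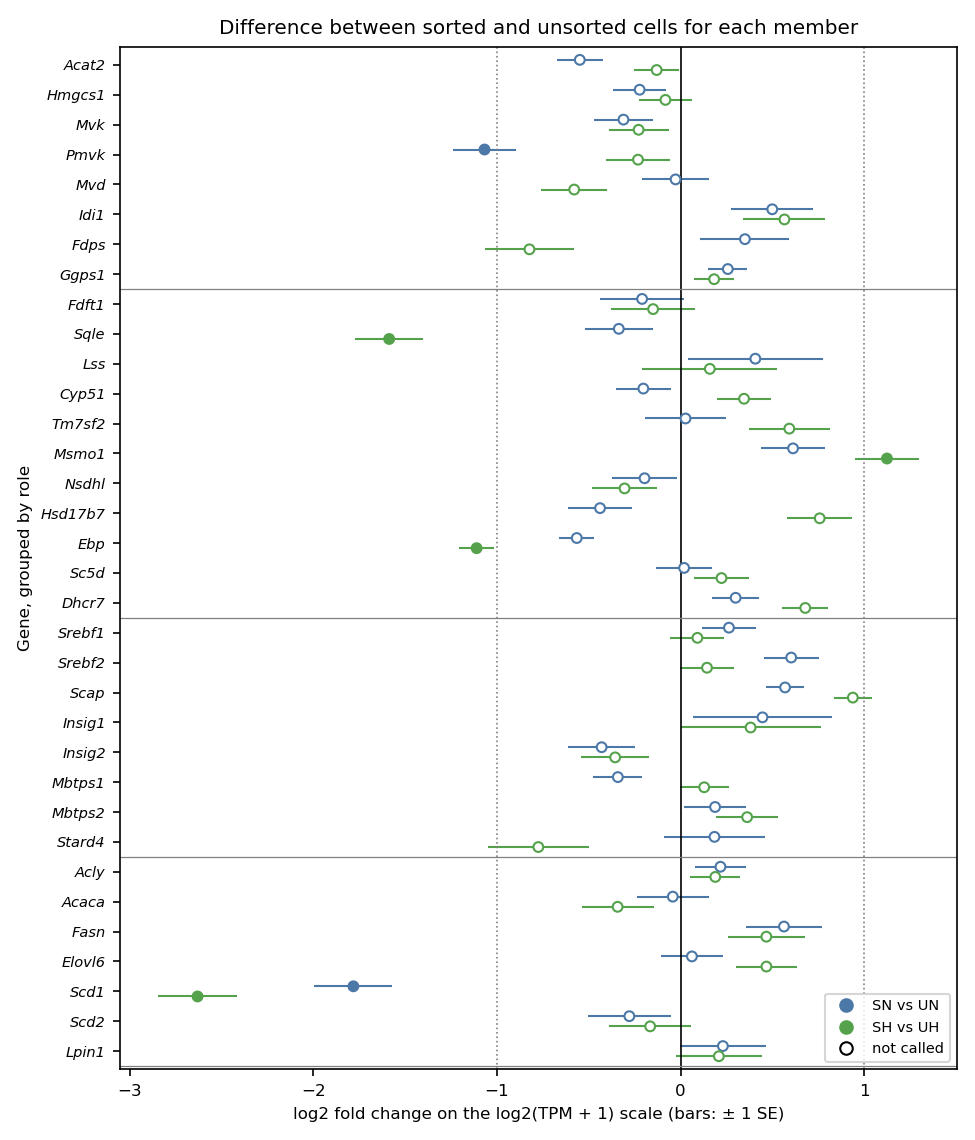
Difference between sorted and unsorted cells for each member as a log2 fold change on the log2(TPM + 1) scale with ± 1 SE, in normoxia (SN vs UN) and in hypoxia (SH vs UH), with filled points for called genes and dotted lines at the fold limit. Most members lie within the limits, and Scd1 lies beyond the lower one in both comparisons.

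Between SH and UH 1 member was higher and 3 were lower, against 7.65% and 5.35% of all genes. Scd1 was lower by -2.63 ± 0.21 (adjusted p = 2.6e-06), Sqle by -1.59 ± 0.18 (adjusted p = 4.2e-05) and Ebp by -1.11 ± 0.10 (adjusted p = 4.3e-06). Msmo1 was higher by 1.12 ± 0.17 (adjusted p = 0.00034), which fell under the fold limit with median-of-ratios scaling (0.91) and with quantile normalization (0.97). Under those scalings no member was higher and 4 and 5 were lower, with Fdps added at -1.04 and -1.002 and Stard4 at -1.01 with quantile normalization. Fdps was also lower without SH replicate 3 (-1.04), and Scap was higher without UH replicate 3 (1.02). Both sorted groups also differed from the unsorted groups in the fibroblast and pericyte sums given above, whose part in the Scd1 and Pmvk differences was not tested.

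The hypoxia response of the 34 genes was compared between the populations as (SH - SN) - (UH - UN). For 3 members the 2 responses differed, 1 with a more positive and 2 with a more negative response in sorted cells, against 8.08% and 2.18% of all genes. Sqle differed by -1.25 ± 0.26 (adjusted p = 0.0063), with the rise in unsorted cells and no called change in sorted cells. Hsd17b7 differed by 1.20 ± 0.25 (adjusted p = 0.0064), with the fall in unsorted cells alone past the fold limit, and was no longer called under median-of-ratios scaling (0.90) or quantile normalization (0.88). Fdps differed by -1.17 ± 0.34 (adjusted p = 0.031), with the deeper fall in sorted cells. That call was lost in 8 of the 12 fits without 1 library, with adjusted p between 0.053 and 0.078 and differences between -0.96 and -1.24. These were the fits without UN replicate 2, UN replicate 3, UH replicate 1, UH replicate 3, SN replicate 2, SN replicate 3, SH replicate 1 or SH replicate 2. Without UN replicate 1, Pmvk (1.03) and Stard4 (-1.23) were called as well. Of the 31 other members, Pmvk (0.84 ± 0.24) and Ebp (-0.55 ± 0.14) passed the adjusted p without passing the fold limit. Scd1 was at -0.85 and not called in the main fit. It was called under median-of-ratios scaling (-1.18, adjusted p = 0.0086), quantile normalization (-1.28, adjusted p = 0.0047) and a pseudocount of 0.1. Stard4 (-0.96 in the main fit) was called under the same scalings, at -1.25 and -1.36. For the INSIG genes the 95% intervals of the difference were -1.24 to 1.11 for Insig1 and -0.50 to 0.64 for Insig2.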

How the data were processed

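The authors deposited 1 table of gene-level TPM from nf-core/rnaseq version 3.12.0 (Salmon quantification, mm10 per the labels), made from stranded mRNA libraries of RNA with RIN above 8.0. The annotation release is not given in the sources used here. TPM keeps no read totals, so no count model was run, and a gene's TPM also moves with all other genes. Genes with a mean of at least 0.1 TPM were fitted as log2(TPM + 1) with limma 3.58.1 in R 4.3.3 (a mean for each of 4 groups, moderation with a trend), and p-values were adjusted by Benjamini-Hochberg over all 18909 genes in each of 5 comparisons. A gene was called at an adjusted p under 0.05 and an absolute log2 fold change above 1, which understates the change of low genes because of the pseudocount of 1. The script was tested on simulated data. Values in every library are given for members called in a hypoxia comparison and for the SREBP control genes. Those of Sqle and Pmvk, and the 4 promoters, were added after their values were seen. From each list of other genes at most 4 called genes were named, and some genes of these lists are not reported here. The members and lists were chosen with earlier results of these data known. Gene positions came from GENCODE M21 and promoters from RefSeq. Alternatives changed the pseudocount, filter, scaling, design, moderation and libraries.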

Additional observations from a re-analysis of the deposited data

Results flagged for a closer look

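The hypoxia responses of 3 members differed between sorted and unsorted cells in the test of the difference itself, (SH - SN) - (UH - UN), by limma with Benjamini-Hochberg adjustment over all genes. The difference was -1.25 on the log2 scale for Sqle, which was higher in all 3 UH libraries than in any UN library and lower in all 3 SH libraries than in any SN library. For Hsd17b7 it was 1.20, and all 3 hypoxic libraries lay below all 3 normoxic ones in both populations. That call was lost under median-of-ratios scaling (0.90) and quantile normalization (0.88). For Fdps it was -1.17, and the libraries were separated in the same way in both populations. The Fdps call was lost in 8 of the 12 fits without 1 library and with no filter on low values. With 3 libraries a group, no test for outlying libraries was run.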

How the results depend on the processing

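The counts of members called in the 2 hypoxia comparisons stayed within 1.5 times under all alternatives run. Other settings gave 15 to 19 lower and 2 to 3 higher for unsorted cells, and 19 to 20 lower and 2 higher for sorted cells. At an adjusted p with no fold limit 27 were lower and 3 higher in unsorted cells, and 23 were lower and 2 higher in sorted cells. No member called in any comparison changed sign. Without 1 library the counts ran from 17 to 21 lower and 2 to 3 higher for unsorted cells and from 19 to 20 lower for sorted cells. Between SN and UN they then ran from 1 to 2 lower, between SH and UH from 3 to 4 lower and 1 to 2 higher, and for the difference of responses from 1 to 3 lower and 1 to 2 higher. Median-of-ratios scaling gave 1 member lower between SN and UN, 0 higher between SH and UH, and for the difference of responses 0 higher with 4 lower. Quantile normalization gave 0 higher with 5 lower between SH and UH, and for the difference 0 higher with 4 lower. With no filter on low values, where 28017 genes were tested, 1 member was lower for the difference, as Fdps passed to an adjusted p of 0.054. With no fold limit 3 members were higher and 4 lower between SN and UN, 6 higher and 6 lower between SH and UH, and 2 higher for the difference. For the other changes the cause was not tested. Over all genes the difference of responses was called for 1527 higher and 412 lower genes, against 903 and 783 with median-of-ratios scaling and 772 and 745 with quantile normalization. The same scalings moved the SH to UH comparison from 1447 higher and 1012 lower genes to 1022 and 1326 and to 1088 and 1239, and quantile normalization moved that of SN to UN from 606 and 1431 to 840 and 1136. For libraries with equal replicate numbers, deviations from the group means correlated between -0.12 and 0.14 over 18 pairs, with 1 above 0.1. For different numbers they correlated between -0.22 and 0.22 over 36 pairs, with 6 above 0.1. These values did not show a pairing by number, and they cannot exclude one. With the replicate block the counts of lower and higher members were 18 and 2 for unsorted cells, 19 and 2 for sorted cells, 2 and 0 between SN and UN, 3 and 1 between SH and UH, and 2 and 1 for the difference. Depth is unknown, so differences of low genes such as Lpin1 and Stard4 rest on the replicate spread alone.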
